A study of Arabidopsis thaliana with 12 samples.

Results

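The polyubiquitin genes UBQ3 (AT5G03240), UBQ4 (AT5G20620), UBQ10 (AT4G05320), UBQ11 (AT4G05050) and UBQ14 (AT4G02890) of Arabidopsis thaliana were taken from the deposited expression table by their locus identifiers, without use of any measured value. They were 5 of 32833 genes in the table, and all 5 passed the filter on low values that left 17628 genes for testing. RNA with poly(A) tails from whole seedlings of the Col-0 ecotype, 10 days old, had been sequenced with a kit that keeps strand in 12 libraries. The libraries formed 4 groups of 3: atdamt1 mutants after 2.5 h of heat, atdamt1 mutants without heat, wild type after 2.5 h of heat, and wild type without heat. Every library without heat (control) was labelled 0 h, so heat and time cannot be told apart. The labels give neither the temperature nor the lesion or allele of atdamt1. Separate cultures or batches of plants are not mentioned for the replicates, so the p-values reflect library-to-library spread that could be technical in part.

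Ubiquitin is a small protein that is linked to other proteins, often as a chain that marks them for breakdown by the proteasome. A polyubiquitin gene encodes several ubiquitins joined head to tail, and the translated chain is cut into single ubiquitins by deubiquitylating enzymes. Heat unfolds proteins and raises the demand for ubiquitin in many eukaryotes, and some polyubiquitin genes are classed as heat shock genes there. In plant work UBQ10 and UBQ11 are widely used as internal references for RT-qPCR, and the UBQ10 promoter is used to drive transgenes. A reference gene serves that purpose only where its level holds across the compared conditions, and that was examined here for heat.

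In the RefSeq annotation of build TAIR10.1, UBQ10 lay at chr4:2717977-2720308 on the plus strand, with 6 ubiquitin units in its coding sequence. UBQ11 lay at chr4:2588004-2589437 and UBQ14 at chr4:1278530-1280166, both on the minus strand, with 3 and 4 units. On chromosome 5, UBQ3 lay at chr5:771660-773515 and UBQ4 at chr5:6973053-6975009, both on the minus strand, with 4 and 5 units. Each unit had 228 bases, or 76 codons. The 22 units of the 5 genes all differed in DNA, and all 22 gave 1 and the same translation. The first unit of each gene is shown because it marks how far the genes differ while encoding one protein, and because those differences decide whether a read can be placed. Capitals mark bases that differ from the first unit of UBQ10.
UBQ10: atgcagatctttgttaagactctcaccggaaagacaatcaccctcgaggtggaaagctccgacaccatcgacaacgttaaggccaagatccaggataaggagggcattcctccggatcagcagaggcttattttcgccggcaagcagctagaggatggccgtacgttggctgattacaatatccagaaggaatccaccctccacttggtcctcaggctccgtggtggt
UBQ14: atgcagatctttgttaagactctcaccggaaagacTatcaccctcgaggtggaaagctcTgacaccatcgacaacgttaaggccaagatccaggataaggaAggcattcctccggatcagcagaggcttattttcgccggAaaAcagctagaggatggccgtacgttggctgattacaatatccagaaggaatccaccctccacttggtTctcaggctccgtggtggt
UBQ11: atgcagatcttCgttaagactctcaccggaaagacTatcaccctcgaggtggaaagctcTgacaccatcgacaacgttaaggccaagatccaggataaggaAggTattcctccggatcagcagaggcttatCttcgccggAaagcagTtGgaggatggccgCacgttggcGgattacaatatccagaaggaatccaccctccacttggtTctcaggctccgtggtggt
UBQ4: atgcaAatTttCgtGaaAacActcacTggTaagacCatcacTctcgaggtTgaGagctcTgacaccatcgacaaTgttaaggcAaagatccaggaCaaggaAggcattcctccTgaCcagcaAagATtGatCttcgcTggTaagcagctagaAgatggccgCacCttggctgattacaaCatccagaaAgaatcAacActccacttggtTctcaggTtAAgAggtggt
UBQ3: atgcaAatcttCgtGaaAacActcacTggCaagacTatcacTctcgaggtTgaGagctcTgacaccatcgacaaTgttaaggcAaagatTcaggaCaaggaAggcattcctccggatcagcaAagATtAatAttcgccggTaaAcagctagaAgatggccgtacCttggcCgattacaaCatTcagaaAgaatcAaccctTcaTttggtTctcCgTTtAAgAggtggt
UBQ14 differed from UBQ10 at 6 of these bases, UBQ11 at 12, UBQ4 at 38 and UBQ3 at 40. In this unit UBQ14 and UBQ11, which lie on the same chromosome as UBQ10, were closer to it than UBQ4 and UBQ3 of chromosome 5. UBQ3 and UBQ4 units reached 95.2% identity with each other, against at most 85.5% for a unit of UBQ4 and one of UBQ10.

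How the authors' counting placed reads that match more than 1 of these genes is not given in the sources used here. Of all 100-base windows along each transcript, between 99.4% (UBQ11) and 100% were unique to their gene, and 8 windows were shared by UBQ10 and UBQ11. At 50 bases the share of windows found only once was 88.5% in UBQ11, 90.8% in UBQ10, 91.4% in UBQ14 and 98.2% to 98.3% in UBQ4 and UBQ3. Windows that matched another gene made up 7.18% in UBQ10 and 8.55% in UBQ14, and a further 2.02% repeated within UBQ10 itself. UBQ14 also overlapped AT4G02880, which read 5.55 to 7.80 RPKM over the 12 libraries, and a long noncoding RNA, AT4G04335, listed at 0 in all of them. The strand setting of the counting is not given in the sources used here, so UBQ14 is uncertain to that extent.

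All 5 genes were expressed in every library, and their order was the same in all 12: UBQ10 highest, then UBQ3, UBQ11, UBQ14 and UBQ4. Levels are in RPKM, reads scaled to gene length and to the library total, so they can be compared between genes. In wild type without heat UBQ10 averaged 464 ± 32.3 RPKM, UBQ3 269 ± 6.40, UBQ11 197 ± 15.4, UBQ14 91.7 ± 7.83 and UBQ4 25.8 ± 1.12 RPKM (SD, n = 3 each). No neighbours in this order overlapped within any of the 4 groups.

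**Figure D1:**
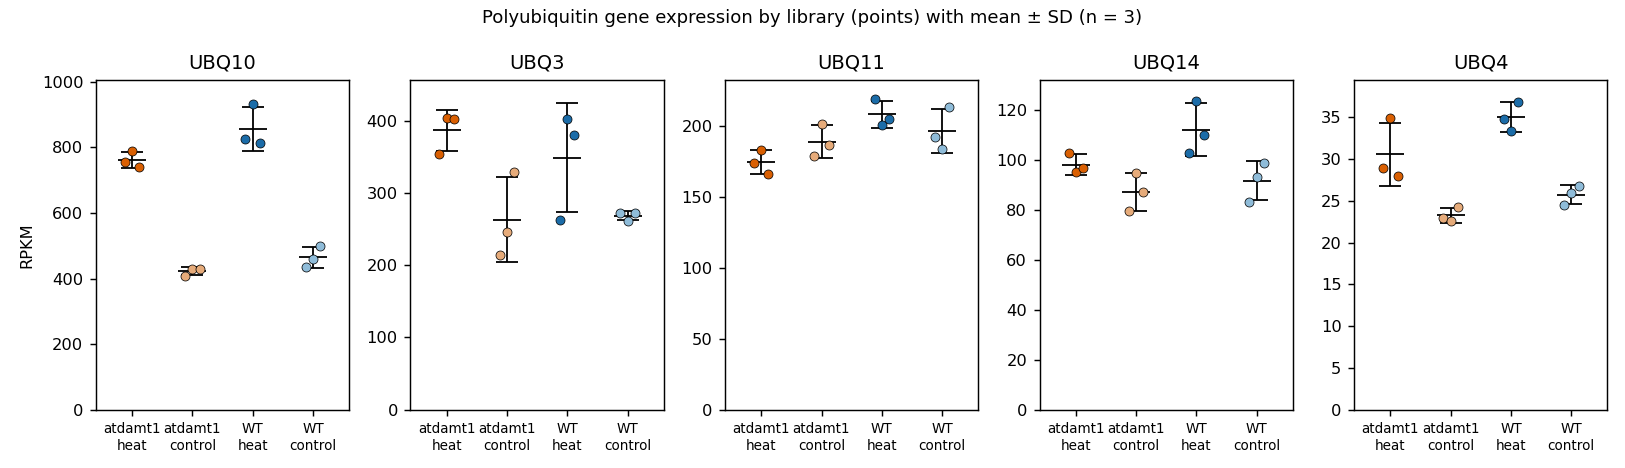
RPKM of UBQ10, UBQ3, UBQ11, UBQ14 and UBQ4 (1 panel each, vertical axis from 0) in atdamt1 heat, atdamt1 control, WT heat and WT control. Points are libraries and bars are mean ± SD (n = 3); UBQ10 is the gene whose heat libraries (739 to 932 RPKM) lie farthest from its control libraries (408 to 499 RPKM), while the groups of UBQ11 lie between 166 and 219 RPKM.

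With heat, UBQ10 rose 1.84-fold in wild type and 1.80-fold in atdamt1, UBQ4 rose 1.36-fold and 1.31-fold, and UBQ11 did not pass the test in either genotype. UBQ14 passed in wild type and not in atdamt1, and UBQ3 in atdamt1 and not in wild type, while the difference between the genotypes' heat responses did not pass for any member. Differences below are on the scale log2(RPKM + 1), tested two-sided with limma over all 17628 genes and adjusted by the Benjamini-Hochberg method, with a threshold of 0.05. In each genotype 3 of 5 members were called higher and 0 lower. Of all genes tested, 9.41% were called higher in wild type and 10.3% in atdamt1, against 52.6% and 56.2% called lower. The median heat difference of the 5 members was 0.35 in wild type and 0.37 in atdamt1, beside a median over all genes tested of -0.41 and -0.44.

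UBQ10, the gene with the highest level and the one used most as a reference, read 756, 788 and 739 RPKM in atdamt1 heat libraries, against 408, 429.7 and 429 RPKM in atdamt1 control libraries. In wild type it read 824, 932 and 812 RPKM after heat, against 435, 459.9 and 499 RPKM in control. Every heat library was far above every control library in both genotypes. The log2 difference was 0.85 ± 0.095 (SE) in atdamt1 (limma adjusted p = 1.42e-05) and 0.88 ± 0.095 in wild type (adjusted p = 1.16e-05).

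UBQ4, the least expressed member, read 28.9, 34.9 and 28.0 RPKM in atdamt1 heat libraries, against 23.0, 22.5 and 24.3 RPKM in atdamt1 control libraries. In wild type it read 34.8, 33.3 and 36.9 RPKM after heat, against 24.5, 26.0 and 26.7 RPKM in control. The groups did not overlap in either genotype. The log2 difference was 0.37 ± 0.096 in atdamt1 (limma adjusted p = 0.00460) and 0.43 ± 0.096 in wild type (adjusted p = 0.00215).

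UBQ3 read 354, 404 and 403 RPKM in atdamt1 heat libraries, against 214, 247 and 328 RPKM in atdamt1 control libraries. In wild type it read 262, 403 and 381 RPKM after heat, against 272, 261 and 273 RPKM in control. Groups were separate in atdamt1, while in wild type the first heat library lay within the control range and the other two well above it. UBQ3 rose in atdamt1, with a log2 difference of 0.58 ± 0.18 (limma adjusted p = 0.0125), and its difference of 0.35 ± 0.18 in wild type did not pass (adjusted p = 0.103, 95% interval -0.034 to 0.73). Both calls rested on single libraries. Without the first wild-type heat library the wild-type difference was 0.54 (limma adjusted p = 0.0134), and without the first atdamt1 control library the atdamt1 difference was 0.44 (adjusted p = 0.0583). UBQ3 had the widest spread between replicates of the 5 members, with a pooled within-group SD of 0.24 on the log2 scale, against 0.080 for UBQ10.

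UBQ14 read 103, 95.1 and 96.8 RPKM in atdamt1 heat libraries, against 79.7, 94.8 and 87.3 RPKM in atdamt1 control libraries. In wild type it read 103, 124 and 110.2 RPKM after heat, against 83.3, 93.2 and 98.7 RPKM in control. The groups did not overlap, but in each genotype the lowest heat library was close to the highest control library. UBQ14 rose in wild type, by 0.29 ± 0.10 on the log2 scale (limma adjusted p = 0.0280), and its difference of 0.17 ± 0.10 in atdamt1 did not pass (adjusted p = 0.157). The wild-type call was lost without control replicate 1 or 2 or heat replicate 2 or 3 (differences of 0.22 to 0.30, limma adjusted p = 0.0501 to 0.111).

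UBQ11 read 174, 183 and 166 RPKM in atdamt1 heat libraries, against 179, 202 and 187 RPKM in atdamt1 control libraries. In wild type it read 219, 200.5 and 205 RPKM after heat, against 193, 184 and 214 RPKM in control. Heat and control libraries overlapped in both genotypes. The log2 difference was -0.11 ± 0.091 in atdamt1 (limma adjusted p = 0.280, 95% interval -0.31 to 0.084) and 0.083 ± 0.091 in wild type (adjusted p = 0.447, interval -0.12 to 0.28). These intervals leave room for small changes either way.

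All of these differences are relative to the library total, and the choice of scale bears on them because most genes fell on it. Median-of-ratios scaling sets the typical gene near 0: the median over all genes was then 0.011 in each genotype, and the share of genes called higher was 27.5% in atdamt1 and 28.7% in wild type, with 27.2% and 26.7% called lower. On that scale all 5 members were called higher in both genotypes. UBQ10 then differed by 1.39 in atdamt1 and 1.40 in wild type, UBQ3 by 1.11 and 0.86, UBQ4 by 0.89 and 0.92, UBQ14 by 0.71 and 0.80, and UBQ11 by 0.42 and 0.60. The calls of UBQ11 in both genotypes, UBQ3 in wild type and UBQ14 in atdamt1 thus turned on the scaling, as did the direction of UBQ11 in atdamt1, while UBQ10 and UBQ4 were called higher under all 14 other settings and without each library. Neither scale gives absolute RNA amounts, and in whole seedlings fewer cells of a type and less RNA per cell cannot be told apart.

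Other features of the libraries differed beside the heat treatment, and not evenly. Chloroplast-encoded genes made up 3.17% to 6.01% of the summed RPKM in atdamt1 heat and 0.320% to 0.979% in atdamt1 control, and 0.390% to 4.05% in WT heat and 0.394% to 1.07% in WT control. In wild type the high end was 1 library, heat replicate 2, and of the other 2 heat libraries 1 lay within the control range (0.628%) and 1 just below it (0.390%). With that share as a covariate, UBQ10 and UBQ4 kept their calls, and the UBQ3 call in atdamt1 (0.46, limma adjusted p = 0.300) and the UBQ14 call in wild type (0.25, adjusted p = 0.0587) did not pass. In atdamt1 the share was higher in every heat library than in every control library, so the fit could hardly separate it from heat. Calls over all genes there dropped from 11730 to 5474 with the covariate. Among 4 tissue markers, the leaf gene LHCB1.1 was higher after heat (log2 difference 2.55 in atdamt1, 2.29 in wild type), and PYK10 (-2.14 and -2.61), SCR (-1.95 and -1.88), both of the root, and the leaf gene RBCS1A (-0.64 and -0.40) were lower. Their part in the member differences was not tested. All 4 markers were detected in all 12 libraries, as whole seedlings should show.

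**Figure D2:**
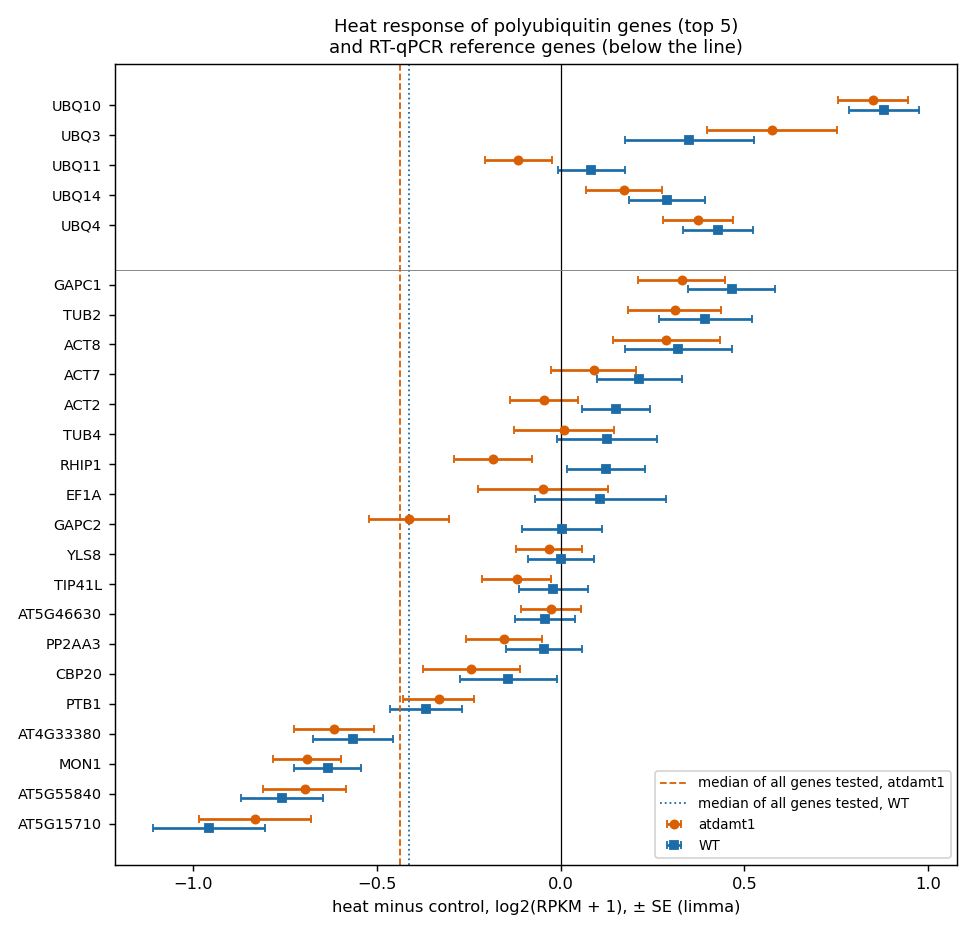
Heat minus control on the log2(RPKM + 1) scale (horizontal axis, ± SE, limma) for the 5 polyubiquitin genes and, below the line, 19 genes used as RT-qPCR references, in atdamt1 (circles) and WT (squares); dashed and dotted lines are the medians of all genes tested. UBQ10 lies at 0.85 and 0.88, to the right of every reference gene, and UBQ11 lies at -0.11 and 0.083 among the genes near 0, while the medians of all genes lie at -0.44 and -0.41.

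Most of the reads added with heat came from UBQ10, and the make-up of the family shifted. The 5 genes together took 0.273 ± 0.00883% of the reads in atdamt1 heat libraries and 0.180 ± 0.0141% in atdamt1 control libraries, and 0.293 ± 0.0245% in WT heat and 0.192 ± 0.0101% in WT control (SD, n = 3 each). Heat was thus 1.52-fold above control in atdamt1 and 1.53-fold in wild type, and heat and control libraries did not overlap. UBQ10 accounted for 74.4% of the added reads in atdamt1 and 79.0% in wild type, and UBQ3 for 24.7% and 14.6%. The UBQ10 share of family reads was 56.9 ± 1.01% in atdamt1 heat and 48.0 ± 2.58% in atdamt1 control, and 59.7 ± 2.45% in WT heat and 49.4 ± 1.08% in WT control. The UBQ11 share was 9.16 ± 0.272% in atdamt1 heat and 15.1 ± 1.11% in atdamt1 control, and 10.3 ± 1.30% in WT heat and 14.7 ± 0.585% in WT control. For these counts, reads were recovered from RPKM with the annotated gene length, and 99.4% to 99.5% of values per library came out whole within 0.1 reads.

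**Figure D3:**
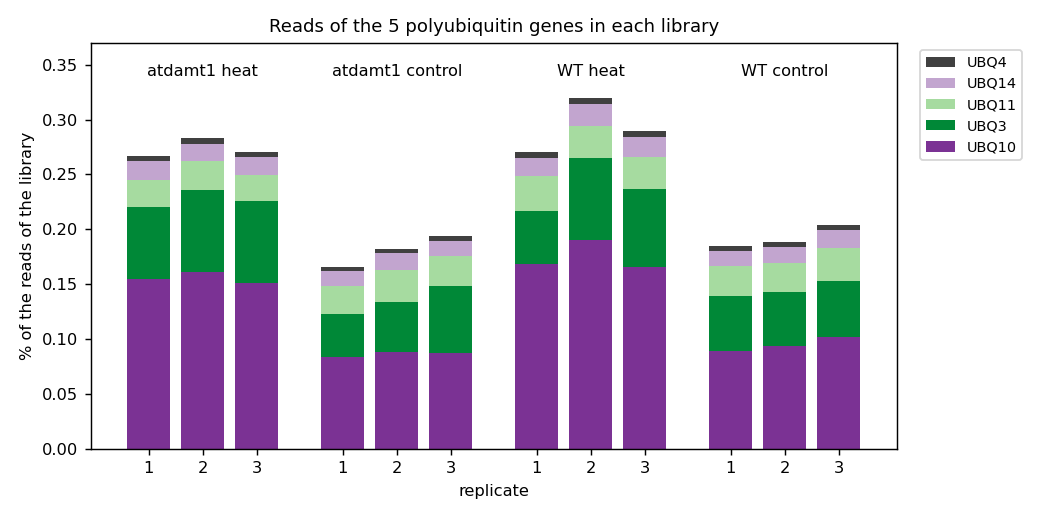
Reads of the 5 polyubiquitin genes as a percentage of all reads of the library (vertical axis, from 0) in each of the 12 libraries, stacked by gene with UBQ10 at the bottom. The 3 heat libraries of each genotype stand above its 3 control libraries (group means of 0.273% and 0.180% in atdamt1, 0.293% and 0.192% in WT), and the UBQ10 segment carries most of the gap.

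Ratios between members within a library were taken as differences of log2(RPKM + 1), so library scaling enters them only through the added 1 RPKM. With no pseudocount, an alternative chosen after seeing the data and free of the scaling, each mean shift moved by at most 0.014 and the same pairs passed. The 10 pairs were compared between heat and control with an exact two-sided permutation test that permuted libraries within each genotype (400 assignments, smallest possible p of 0.005), adjusted over the 10 pairs. The UBQ10 to UBQ11 ratio moved most, with a mean log2 ratio of 2.12 ± 0.023 in atdamt1 heat and 1.15 ± 0.060 in atdamt1 control, and 2.03 ± 0.16 in WT heat and 1.23 ± 0.076 in WT control (SD, n = 3 each). It was higher in all 6 heat libraries than in any control library, by 0.88 on average (exact permutation adjusted p = 0.0125). UBQ10 also gained on UBQ14 (0.63, exact permutation adjusted p = 0.0125), on UBQ4 (0.46, adjusted p = 0.0125) and on UBQ3 (0.40, adjusted p = 0.0167). UBQ11 lost to UBQ4 (0.42, exact permutation adjusted p = 0.0125), to UBQ14 (0.25, adjusted p = 0.0167) and to UBQ3 (0.48, adjusted p = 0.0429). Among UBQ3, UBQ4 and UBQ14 no pair passed, with mean shifts of 0.062 (UBQ3 over UBQ4, exact permutation adjusted p = 0.655), 0.23 (UBQ3 over UBQ14, adjusted p = 0.122) and 0.17 (UBQ4 over UBQ14, adjusted p = 0.122). UBQ3 over UBQ14 passed without WT heat replicate 1 (0.30, exact permutation adjusted p = 0.0438), and UBQ4 over UBQ14 passed without WT heat replicate 2 (0.22, adjusted p = 0.0286). The UBQ3 to UBQ11 difference was lost in 8 of the 12 repeats that left out 1 library, and those of UBQ10 to UBQ3 and UBQ14 to UBQ11 reached an adjusted p of 0.05 in 1 each.

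The 250 bases before the annotated start were searched for paired heat shock element units, the inverted GAA repeats that heat shock factors bind, on both strands: TTCNNGAA, GAANNTTC and the 3-unit forms that extend either motif by NN and a further TTC or GAA in alternation, and so contain the shorter ones. UBQ10 held 1 TTCNNGAA, beginning 229 bases before the gene, and the other 4 members held none of these motifs in that window. The window of UBQ10 (chr4:2717727-2717976, plus strand) and, for comparison, that of UBQ11 (chr4:2589438-2589687, minus strand) are shown as the members with the most and the least difference after heat, with capitals for the motif.
UBQ10: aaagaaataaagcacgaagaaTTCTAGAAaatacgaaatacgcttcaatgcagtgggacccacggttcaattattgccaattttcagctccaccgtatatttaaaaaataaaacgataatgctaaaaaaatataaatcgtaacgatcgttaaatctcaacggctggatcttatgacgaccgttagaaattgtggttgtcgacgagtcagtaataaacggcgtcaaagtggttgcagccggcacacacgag
UBQ11: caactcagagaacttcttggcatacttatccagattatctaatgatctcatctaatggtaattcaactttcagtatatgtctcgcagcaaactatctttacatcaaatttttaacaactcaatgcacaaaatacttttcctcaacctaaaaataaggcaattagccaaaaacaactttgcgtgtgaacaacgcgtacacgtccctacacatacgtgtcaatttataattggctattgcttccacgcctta
Of 27443 windows of this length before genes of the annotation, 7.68% held TTCNNGAA, 9.55% held GAANNTTC and 0.386% a 3-unit form. The match in UBQ10 is a description of its sequence, and binding was not measured.

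Ubiquitin is also made from genes that fuse 1 ubiquitin to a ribosomal protein, and none of these was called higher with heat on the deposited scale. Of 5 such genes 4 were tested. None was called in wild type, and in atdamt1 UBQ2 (-0.67 ± 0.19, limma adjusted p = 0.00861), UBQ6 (-0.57 ± 0.18, adjusted p = 0.0140) and UBQ5 (-0.47 ± 0.17, adjusted p = 0.0245) fell. Over all genes tested, 10.3% were called higher and 56.2% lower in atdamt1, and 9.41% and 52.6% in wild type. The median of the 4 was -0.52 in atdamt1 and -0.30 in wild type, near the -0.44 and -0.41 of all genes. The wild-type differences were -0.36 for UBQ2, -0.36 for UBQ6 and -0.23 for UBQ5, and UBQ1 differed by -0.32 in atdamt1 and 0.045 in wild type. On the median-of-ratios scale none of the 4 was called in atdamt1 and UBQ1 was higher in wild type (0.56). The 4 ubiquitin-like loci UBQ8, UBQ9, UBQ12 and UBQ13 were not tested, since UBQ8 stayed at or below 0.251 RPKM and the others were listed at 0. RUB1 and RUB2, which encode ubiquitin joined to the related modifier RUB, differed by 0.0063 and -0.29 in atdamt1 and by 0.22 and 0.043 in wild type, and of these only RUB2 in atdamt1 passed (limma adjusted p = 0.0245). Under median-of-ratios scaling RUB2 in atdamt1 turned to 0.23 and did not pass (limma adjusted p = 0.0665), while RUB2 in wild type (0.55) and RUB1 in both genotypes (0.53 in atdamt1, 0.73 in wild type) were called higher.

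Of 37 genes that charge, attach, remove or read ubiquitin, 9 rose and 8 fell in atdamt1 and 10 rose and 7 fell in wild type, with 20 not called in each, beside 10.3% and 9.41% of all genes called higher and 56.2% and 52.6% called lower. These counts depended on the scale. Rescaled by median of ratios, the 37 genes gave 27 higher and 1 lower calls in atdamt1 and 28 and 3 in wild type, beside 27.5% and 28.7% of all genes called higher. UBA1, an E1 enzyme that activates ubiquitin, rose in wild type (0.27, limma adjusted p = 0.0108) and differed by 0.16 in atdamt1 (adjusted p = 0.0953). Among 13 conjugating (E2) genes, 5 rose in each genotype, led by UBC29, UBC28 and UBC10. UBC29 averaged 8.64 ± 1.80 RPKM in atdamt1 heat and 2.27 ± 1.44 RPKM in atdamt1 control, and 10.9 ± 0.971 RPKM in WT heat and 3.76 ± 0.456 RPKM in WT control (SD, n = 3 each), and the groups did not overlap. UBC21, also known as PEX4 and active at the peroxisome, fell by 0.58 in atdamt1 and by 0.56 in wild type.

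Among 8 genes that carry or extract ubiquitylated proteins, 4 rose in each genotype, among them the proteasome shuttles RAD23C (0.82 in atdamt1, 0.74 in wild type) and RAD23D (0.26 and 0.29) and CDC48A (0.28 and 0.34), an ATPase that pulls ubiquitylated proteins out of complexes. RAD23B, a paralog of RAD23C, fell by 0.56 in atdamt1 and by 0.47 in wild type. Of 10 deubiquitylating enzymes 0 rose and 2 fell in each genotype. On the median-of-ratios scale 7 were higher and 1 lower in atdamt1, and 8 higher and 1 lower in wild type. Beside the counts of this paragraph, 10.3% of all genes were called higher and 56.2% lower in atdamt1, and 9.41% and 52.6% in wild type. Under median-of-ratios scaling these shares were 27.5% and 27.2% in atdamt1, and 28.7% and 26.7% in wild type. UBP13 read 4.71 to 7.04 RPKM in atdamt1 heat and 15.7 to 16.9 RPKM in atdamt1 control, and 5.50 to 7.14 RPKM in WT heat and 17.8 to 19.8 RPKM in WT control, and its close relative UBP12 fell by 0.25 and 0.27. Of 4 ligase (E3) genes, the HECT-type UPL1 and UPL3 fell in both genotypes (UPL1 by 0.54 in atdamt1 and 0.78 in wild type, UPL3 by 0.50 and 0.75), and UPL5 fell in wild type (-0.44, limma adjusted p = 0.00679) and differed by -0.28 in atdamt1 (adjusted p = 0.0588). On the median-of-ratios scale 11 of the 13 E2 genes were higher in each genotype, UBP13 remained lower (-0.79 in atdamt1, -0.94 in wild type), UBP12 was higher (0.26 and 0.22), and UBC21 and RAD23B were not called. On that scale UPL1 and UPL3 lost their calls in atdamt1 (-0.12 and -0.00068) and stayed lower in wild type (-0.37 and -0.27), and UPL5 was not called in either genotype.

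No member differed between the genotypes past the threshold. AT1G19340, the Arabidopsis homolog of METTL4 named in the study's title, served as a check of the genotype labels: it read 0.146 to 0.475 RPKM in atdamt1 heat and 1.30 to 1.54 RPKM in WT heat, and 0.808 to 1.29 RPKM in atdamt1 control and 2.50 to 3.10 RPKM in WT control. It was lower in atdamt1 in every library of each treatment, but did not pass over all genes (limma adjusted p = 0.208 after heat and 0.114 without). Of the 5 members, 0 were called between atdamt1 and wild type without heat (0.0113% of all genes called, 2 genes), 0 after heat (0% of all genes) and 0 for the difference between the heat responses (0% of all genes). At an unadjusted p under 0.05, limma gave 816, 1326 and 596 genes in these 3 comparisons, and voom on recovered reads called 0, 0 and 0 at the adjusted threshold. Differences between atdamt1 and wild type without heat were -0.14 for UBQ4, -0.14 for UBQ10, -0.071 for UBQ14, -0.056 for UBQ11 and -0.054 for UBQ3. The lowest limma adjusted p was 0.935. The median over all genes tested in this comparison was -0.066. The genotype groups without heat did not overlap for UBQ4 and UBQ10, and overlapped for UBQ14, UBQ11 and UBQ3. The share of all genes whose genotype groups did not overlap was not counted. These separations are therefore descriptions and show no genotype effect on the members.

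After heat UBQ11 had the largest difference by genotype of the 5. It averaged 175 ± 8.43 RPKM in atdamt1 heat libraries and 208 ± 9.62 RPKM in WT heat libraries (SD, n = 3 each), and the groups did not overlap. The difference of -0.25 ± 0.091 did not pass over all genes (limma adjusted p = 0.663, unadjusted p = 0.0168). UBQ10 (-0.17), UBQ14 (-0.19) and UBQ4 (-0.19) were also lower and UBQ3 higher (0.17) in atdamt1 after heat. None passed the threshold (limma adjusted p of 0.674 to 0.807). The median over all genes tested after heat was -0.083. The groups of UBQ10 and UBQ14 did not overlap either, while those of UBQ4 and UBQ3 did. Here too the share of all genes without overlap was not counted. The heat response differed between the genotypes by at most 0.23 on the log2 scale (UBQ3, 0.23 ± 0.25, limma adjusted p = 0.979), and for UBQ10 by -0.031 ± 0.13 (adjusted p = 0.993, 95% interval -0.33 to 0.26). The interval of UBQ3 ran from -0.32 to 0.77.

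As a reference, a gene is judged by how little it moves, and the 5 members differed widely. The SD of log2(RPKM + 1) over all 12 libraries was 0.12 for UBQ11, 0.17 for UBQ14, 0.24 for UBQ4, 0.32 for UBQ3 and 0.46 for UBQ10, beside a median of 0.36 over all genes tested. Counted as the share of tested genes with an SD no larger, UBQ11 stood at 2.92%, UBQ14 at 11.99%, UBQ4 at 26.6%, UBQ3 at 42.1% and UBQ10 at 66.0%. UBQ10 varied little between replicates, with a pooled within-group SD at 3.17%. Its SD over the 6 heat libraries was 0.12 and over the 6 control libraries 0.10, against 0.46 over all 12. UBQ10 thus varied far less within each treatment than across them. Within each treatment its atdamt1 libraries still lay below its wild-type libraries. They read 408 to 430 against 435 to 499 RPKM in control, and 739 to 788 against 812 to 932 RPKM after heat. Neither genotype difference passed the threshold. The log2 differences of UBQ10 were -0.14 in control and -0.17 after heat, beside medians over all genes of -0.066 and -0.083. On the median-of-ratios scale they were -0.053 and -0.060.

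On the median-of-ratios scale the same order held among the members, at higher SDs: 0.28 for UBQ11 (46.6%), 0.41 for UBQ14 (69.6%), 0.48 for UBQ4 (78.0%), 0.56 for UBQ3 (84.0%) and 0.73 for UBQ10 (92.0%). Among 24 genes, the 5 members and 19 other reference genes, UBQ11 ranked 5th by SD on the deposited scale and 12th on this one, UBQ14 10th and 18th, UBQ4 16th and 21st, UBQ3 19th and 23rd, and UBQ10 23rd and 24th. These ranks are descriptions with no test.

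Of 20 reference genes outside the ubiquitin families, 19 were tested. In atdamt1 2 were called higher with heat and 6 lower, and in wild type 2 higher and 5 lower. Beside these, 10.3% and 9.41% of all genes were called higher, and 56.2% and 52.6% lower. GAPC1, a glycolytic enzyme, rose by 0.33 in atdamt1 and 0.47 in wild type, and the tubulin TUB2 by 0.31 and 0.39. AT5G15710 (-0.83 in atdamt1, -0.96 in wild type) and AT5G55840 (-0.70 and -0.76) fell most. GAPC2 differed by 0.0040 in wild type (limma adjusted p = 0.978) and fell by 0.41 in atdamt1 (adjusted p = 0.00572), and the difference between the 2 responses did not pass (-0.42 ± 0.15, adjusted p = 0.979). YLS8, a spliceosome component, had the smallest SD of the 24 on the deposited scale (0.076). It read 70.6, 73.3 and 61.9 RPKM in atdamt1 heat and 66.5, 70.1 and 73.6 RPKM in atdamt1 control, and 71.1, 64.8 and 72.0 RPKM in WT heat and 67.4, 67.9 and 72.3 RPKM in WT control. AT5G46630, ACT2 and TIP41L followed. On the median-of-ratios scale the steadiest were MON1, AT4G33380 and PTB1, which had fallen on the deposited scale (by 0.63, 0.56 and 0.37 in wild type). On that scale 12 of the 19 were called higher in atdamt1 and 14 in wild type, beside 27.5% and 28.7% of all genes. Which gene counted as steady therefore depended on the scale, and UBQ10 was last or next to last of the 24 on both. These ranks use log2(RPKM + 1), where the added 1 RPKM lowers the SD of low genes. AT5G15710 and AT5G55840 averaged only 1.46 and 0.799 RPKM, so their places beside UBQ10 depend on it.

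The effect of the choice was read from 4 genes called with heat on the deposited scale, by dividing each by the reference gene within a library. Of these, AT1G19340 lost its heat call in wild type under median-of-ratios scaling. HSP101, a disaggregating chaperone, read 503, 899.9 and 324 RPKM in atdamt1 heat and 3.31, 4.08 and 3.17 RPKM in atdamt1 control, and 1247, 538 and 585 RPKM in WT heat and 4.20, 3.44 and 3.85 RPKM in WT control. Its log2 heat difference was 6.88 in atdamt1 and 7.25 in wild type against the library total, 6.03 and 6.37 against UBQ10, and 6.99 and 7.17 against UBQ11. Over the 19 other reference genes it ran between 6.55 and 7.71 in atdamt1 and between 6.78 and 8.21 in wild type, with GAPC1 at the low end and AT5G15710 at the high end. UBQ10 thus gave a smaller HSP101 response than any of those 19. The same held for HSFA2, a heat shock factor. It differed by 7.81 in atdamt1 and 8.63 in wild type against the library total, and by 6.96 and 7.75 against UBQ10. Over the 19 it ran from 7.48 to 8.65 in atdamt1 and from 8.16 to 9.59 in wild type.

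For genes that fell, the same shift with UBQ10 gave a larger drop. CRT1, a calreticulin of the endoplasmic reticulum, averaged 12.7 ± 1.30 RPKM in atdamt1 heat and 139.8 ± 11.4 RPKM in atdamt1 control, and 13.0 ± 1.92 RPKM in WT heat and 153 ± 21.3 RPKM in WT control (SD, n = 3 each). Its log2 difference was -3.36 in atdamt1 and -3.46 in wild type against the library total, -4.21 and -4.34 against UBQ10, and -3.25 and -3.55 against UBQ11. AT1G19340 differed by -0.58 in atdamt1 and -0.69 in wild type against the library total, by -1.43 and -1.58 against UBQ10 and by -0.46 and -0.78 against UBQ11. With AT5G15710, itself low with a mean of 1.46 RPKM, in the denominator, AT1G19340 differed by 0.25 and 0.26, with heat and control libraries overlapping, so no direction was shown. Overlap was not limited to this reference. With MON1 (mean 11.8 RPKM) AT1G19340 differed by 0.11 in atdamt1 and -0.061 in wild type, with overlap in both. AT5G55840 gave overlap in both genotypes, and EF1A, GAPC2, RHIP1, CBP20 and AT4G33380 in atdamt1 only. In all other cases among the 19, every heat library lay below every control library. AT1G19340 is low, as is AT5G15710, so the added 1 RPKM weighs on these values. With no pseudocount, also chosen after seeing the data, AT1G19340 differed by -1.69 in atdamt1 and -1.05 in wild type against the library total, by -2.54 and -1.93 against UBQ10, by -1.58 and -1.13 against UBQ11, and by -0.12 (groups overlapping) and 0.65 (groups not overlapping) against AT5G15710.

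**Figure D4:**
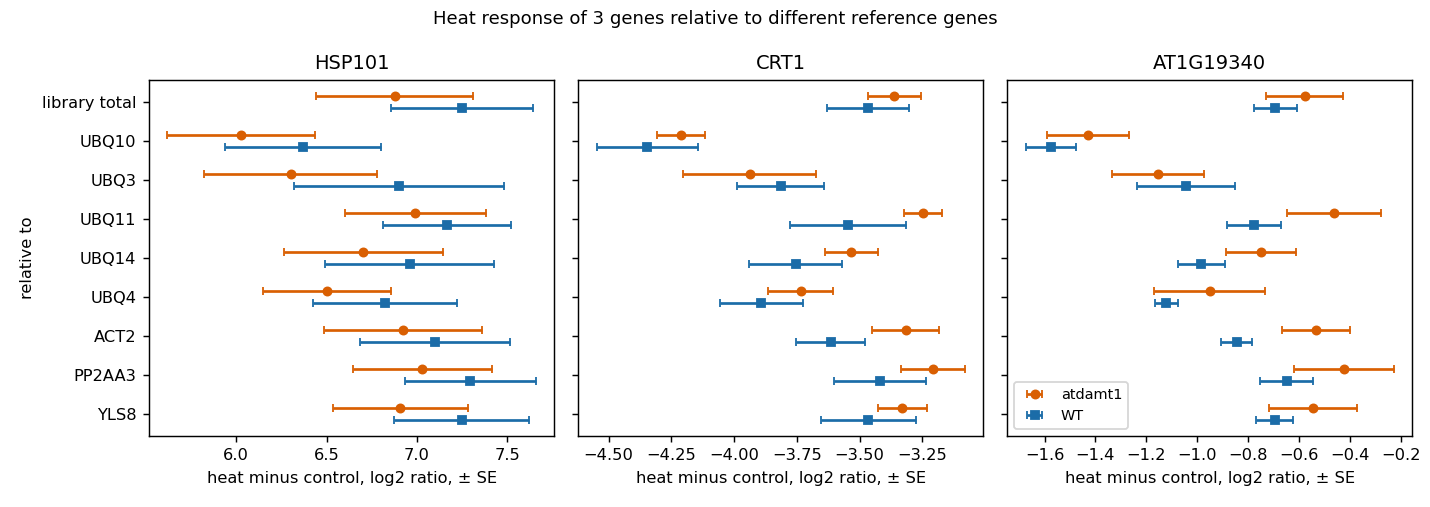
Log2 heat minus control difference (horizontal axis, ± SE, n = 3 against 3) of HSP101, CRT1 and AT1G19340 relative to the library total, each polyubiquitin gene and ACT2, PP2AA3 and YLS8, in atdamt1 (circles) and WT (squares). Values relative to UBQ10 lie to the left of those relative to the library total in all 3 panels (HSP101 6.03 against 6.88 in atdamt1 and 6.37 against 7.25 in WT), and those relative to UBQ11 lie near them.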

How the data were processed

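RNA with poly(A) tails from 12 seedling libraries was measured by RNA sequencing. The deposited table gives RPKM values, made by the authors, for 32833 genes. The submitters' processing notes list STAR, DESeq2 and TAIR10 and give them no role or version. The sources used here give no counting tool, strand setting, read length or annotation release. The 5 members and 12 gene lists (82 entries, all in the table) were chosen by locus with earlier results of these data known. The table's description of UBQ3 carries another member's name, and the locus was followed.

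The 17628 genes that reached an RPKM of 1 in 3 or more libraries were fitted as log2(RPKM + 1) in limma 3.58.1 (R 4.3.3) with 4 group means over all 12 libraries (8 residual degrees of freedom), a mean-variance trend and 5 contrasts. Adjusted p-values are Benjamini-Hochberg values over all genes tested. A fold change on this scale understates the change of low genes, and fold values of the members are ratios of mean RPKM. Intervals are 95% with limma's moderated standard error.

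Library depths of 21720000 to 23519000 reads were recovered from the smallest steps of RPKM values times exon-union length (TAIR10.1, 32548 genes with a length). Replicates were compared before averaging and none was counted as a duplicate (chi-square per degree of freedom of 12.9 to 46.1). Sequences come from RefSeq, build TAIR10.1. Genes of the pathway lists were named by taking up to 3 genes per list and direction called with heat in wild type, reference genes as the 3 with the smallest and the 3 with the largest heat difference in wild type plus ACT2 and PP2AA3, and for each member the 3 genes with the highest Pearson correlation over 12 libraries. Other genes named were chosen after their values were seen. Tables were made with Python 3.11.15, numpy 2.4.6, pandas 2.3.3, scipy 1.17.1, Biopython 1.88 and matplotlib 3.10.9. Alternatives covered the pseudocount, the filter, scaling, the model, recovered reads in voom, a replicate block and leaving out each library.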

Additional observations from a re-analysis of the deposited data

How the results depend on the processing

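Of 645 values over 25 results for single members, 601 kept their direction and their side of the threshold, and 12 results did so under every setting tried. For heat in wild type, UBQ3 passed with median-of-ratios scaling (0.86) and array weights (0.43), UBQ11 passed with median-of-ratios scaling (0.60), and UBQ14 did not pass when only the libraries of the contrast were fitted (0.29) or with the chloroplast covariate (0.25). For heat in atdamt1, UBQ3 did not pass with the covariate (0.46), UBQ14 passed with median-of-ratios (0.71), quantile (0.39) and nuclear scaling (0.28), relative to the reference genes (0.35) and with voom on recovered reads (0.30), and UBQ11 turned positive with median-of-ratios (0.42) and quantile scaling (0.053), relative to the reference genes (0.064), with voom (0.0081) and with the covariate (0.021). Between genotypes without heat, median-of-ratios scaling turned UBQ3 (0.028), UBQ11 (0.026) and UBQ14 (0.011) positive, and the reference genes did so for UBQ3 (0.0066) and UBQ11 (0.0047). The difference in heat response turned positive for UBQ4 with quantile (0.0076) and nuclear scaling (0.049), the reference genes (0.040), voom (0.036) and the covariate (0.14), for UBQ10 with quantile (0.11) and nuclear scaling (0.075), the reference genes (0.063), array weights (0.0081) and voom (0.059), and for UBQ14 with quantile scaling (0.034). The causes were not tested.

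Genes called for heat numbered 10926 in wild type (1659 higher, 9267 lower) and 11730 in atdamt1 (1817 higher, 9913 lower), with 5062 higher and 4715 lower in wild type and 4840 and 4793 in atdamt1 under median-of-ratios scaling, 4001 higher and 4670 lower and 4051 and 5175 under quantile scaling, and 10644 and 10684 genes called with voom. With the covariate 5474 were called in atdamt1. The 2 genes called between genotypes without heat became 0 with a pseudocount of 0.1, no filter, voom or the covariate, and 1 with median-of-ratios scaling or only the libraries of the contrast. After heat the 0 genes became 2 with a pseudocount of 0.1, 1 with median-of-ratios scaling, the reference genes or the replicate block, and 7 with array weights.

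Leaving out 1 library at a time gave 0.23 to 0.54 for UBQ3 and 0.22 to 0.35 for UBQ14 with heat in wild type, 0.44 to 0.75 for UBQ3 with heat in atdamt1, -0.23 to 0.083 for UBQ3 and -0.10 to 0.0052 for UBQ11 between genotypes without heat, -0.020 to 0.29 for UBQ3 after heat, and -0.15 to 0.0056 for UBQ4 and -0.084 to 0.031 for UBQ10 in the difference of heat responses. Ratios ran from 0.32 to 0.46 (UBQ10 over UBQ3), 0.20 to 0.29 (UBQ14 over UBQ11), 0.41 to 0.59 (UBQ3 over UBQ11), 0.18 to 0.32 (UBQ3 over UBQ14), -0.013 to 0.16 (UBQ3 over UBQ4) and 0.11 to 0.22 (UBQ4 over UBQ14). Genes called ran from 0 to 2 between genotypes without heat, 0 to 1 after heat and 0 to 1 for the difference of heat responses.

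Correlations of same-numbered libraries between groups ran from -0.43 to 0.53. No correlations of differently numbered libraries were taken beside them, so they cannot show whether replicate numbers pair the libraries. With the replicate block, 10952 genes were called in wild type and 11749 in atdamt1 with heat, and no member gained or lost a call.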

Other observations

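For each member the genes with the most similar profile over the 12 libraries were listed by Pearson correlation of log2(RPKM + 1), as a description over libraries that share treatment, depth and preparation. The 3 most like UBQ10 were CCB452, encoded in the mitochondrial genome (r = 0.989), AT2G07751 (0.987) and AT2G07739 (0.986). Without heat all 3 averaged under 1 RPKM in each genotype. Their heat over control ratios of mean RPKM ran from 13.2 to 39.7 in atdamt1 and from 9.07 to 18.3 in wild type. Those of UBQ10 were 1.80 and 1.84, so the likeness is in pattern over libraries and not in size. CCB452 read 3.35 ± 0.260 RPKM in atdamt1 heat and 0.230 ± 0.0913 RPKM in atdamt1 control, and 3.76 ± 0.313 RPKM in WT heat and 0.402 ± 0.233 RPKM in WT control (SD, n = 3 each). The mitochondrial-encoded share of the RPKM sum was 0.111% to 0.155% in atdamt1 heat and 0.0126% to 0.0216% in atdamt1 control, and 0.109% to 0.144% in WT heat and 0.0138% to 0.0344% in WT control.

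The most similar gene to UBQ14 was UBC9 (r = 0.917), a ubiquitin-conjugating enzyme that is itself used as a reference. It averaged 79.1 ± 7.16 RPKM in atdamt1 heat and 71.4 ± 7.70 RPKM in atdamt1 control. In wild type it averaged 93.6 ± 2.99 RPKM after heat and 73.1 ± 6.65 RPKM in control. UBC9 was called higher with heat in wild type (0.36, limma adjusted p = 0.0128) and not in atdamt1 (0.15, adjusted p = 0.239). On the median-of-ratios scale it was called higher in both (0.68 in atdamt1, 0.86 in wild type). The most similar to UBQ11 were ALDH10A9 (0.913), an aldehyde dehydrogenase, UCR1-2 (0.912) and AT5G51830 (0.908). UBQ3 was followed by FACT (0.966), AT5G21950 (0.957) and ACR5 (0.954), and UBQ4 by AT5G35460 (0.961), GC6 (0.960) and RABA2B (0.959). Among the members themselves the highest correlation was that of UBQ10 and UBQ4 (0.915), and UBQ10 and UBQ11 were at 0.086.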
